A study of Mus musculus with 24 samples.

Results

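The vascular endothelial growth factor (VEGF) family was followed in mouse choroid through 10 of the 56065 genes deposited, taken by name: the ligands Vegfa, Vegfb, Vegfc, Vegfd and Pgf, the receptor tyrosine kinases Flt1 (VEGFR1), Kdr (VEGFR2) and Flt4 (VEGFR3), and the co-receptors Nrp1 and Nrp2. RNA was sequenced from 24 libraries of choroid, a tissue that in this study holds the retinal pigment epithelium and sclera as well. They came from wild type and Ceacam1-/- mice, each with and without laser, and the comparison asked whether loss of the adhesion molecule CEACAM1 alters the choroid at rest. The 4 groups were wild type without laser (4 libraries, numbers 21, 22, 26 and 27), Ceacam1-/- without laser (4 libraries, 23, 24, 25 and 28), wild type with laser (9 libraries, 1 to 3, 11 to 13, 16, 17 and 19) and Ceacam1-/- with laser (7 libraries, 4 to 7, 14, 15 and 18). Laser was given as 6 spots per eye of 200 µm at 150 mW for 100 ms. The interval from laser to dissection is not given in the sources used here.

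By the study's methods, the Ceacam1-/- mice lacked exons 1 and 2 of the gene in every cell, both genotypes were littermates on C57BL/6J, and both sexes were used as young adults unless stated otherwise. Laser-treated mice are not described there, so for the 16 libraries with laser the genotype and treatment are known from the labels, and strain, litter and age are not given in the sources used here. The labels give neither the sex nor the age of a mouse, and do not say that each library is a different animal, so the tests measure the spread between these libraries. Deposited values were normalized counts, the estimated reads of a gene after scaling for library size and for differences in transcript length between libraries, not for the length of the gene. They summed to between 23704346 and 35094410 per library.

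VEGF-A, released in the eye mainly by the pigment epithelium and by glia, binds VEGFR2 on endothelium, which carries most of its signal for growth and permeability. VEGFR1 binds VEGF-A, VEGF-B and placental growth factor (PlGF, from Pgf) tightly and signals weakly, VEGFR3 answers to VEGF-C and VEGF-D and is known from lymphatic endothelium, and the neuropilins hold ligand and receptor together. In choroid, VEGF-A from the pigment epithelium maintains the fenestrated choriocapillaris, and blocking it is the standard treatment of choroidal neovascularization.

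Of the family, 2 ligand genes fell with laser. Vegfa was lower with laser in both genotypes and Vegfb in Ceacam1-/- mice by limma, while in the fit to all 24 libraries, weighted alike, no receptor or co-receptor passed the test. With a weight estimated per library, the laser changes in wild type mice of Kdr (0.57, adjusted p = 0.00962), Flt1 (0.43, adjusted p = 0.0227), Flt4 (0.77, adjusted p = 0.00591), Nrp1 (0.66, adjusted p = 0.0210) and Nrp2 (1.06, adjusted p = 0.000901) did pass, all in the higher direction on the log2 scale. Vegfa, Vegfb and Vegfd passed in the lower direction under these weights. Of the 19950 genes 16.2% were called higher there and 16.4% lower. With only wild type libraries in the fit, weighted alike, Nrp2 passed as higher (0.78, adjusted p = 0.0371) and Vegfa, Vegfb and Vegfd as lower. In that fit 8.13% of genes were called higher and 3.51% lower. No member passed the test between genotypes, with or without laser. The 250 bases before the annotated starts of Vegfa and Vegfb are shown because these are the members called, as RefSeq gives them on GRCm38.p6, both on the minus strand: chr17:46032378-46032627 for the first of 2 Vegfa starts listed, and chr19:6987652-6987901 for Vegfb. Each reads 5′ to 3′ toward the start, and capitals mark GGGCGG, the GC box that Sp1-type factors bind, on either strand (CCGCCC on the other).
Vegfa: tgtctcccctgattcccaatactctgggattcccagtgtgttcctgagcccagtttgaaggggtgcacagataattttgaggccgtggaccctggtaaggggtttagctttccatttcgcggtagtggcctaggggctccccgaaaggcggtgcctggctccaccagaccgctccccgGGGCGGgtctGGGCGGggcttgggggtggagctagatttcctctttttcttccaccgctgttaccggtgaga
Vegfb: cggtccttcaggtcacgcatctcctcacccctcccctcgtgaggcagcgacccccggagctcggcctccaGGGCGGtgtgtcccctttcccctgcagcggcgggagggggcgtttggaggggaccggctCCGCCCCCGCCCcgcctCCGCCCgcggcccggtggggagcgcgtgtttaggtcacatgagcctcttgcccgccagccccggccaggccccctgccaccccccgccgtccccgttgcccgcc
Vegfa had 2 GC boxes, 72 and 62 bases before its start, and Vegfb had 4, from 180 to 104 bases before it. All 10 members had an entry, and 9 of them held a GC box in this window before their first listed start, against 32.7% of 32851 promoters. These promoters include every listed start of a gene, so members and promoters were not counted alike. The hypoxia response core ACGTG, searched on both strands (read from the opposite strand it is CACGT) and overlapping no GC box in these windows, was in 0 of these 10 windows and in 16.6% of all promoters. A window before the second listed Vegfa start, at chr17:46025164-46025413, held 1, lying 211 bases before that start. Sequence outside these windows was not searched, so they cannot show whether a member lacks a hypoxia response site. With only 10 windows, 0 is no result about the members.

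Ceacam1 was read first, as the check of the genotype labels. Without laser its normalized counts were 958, 5027, 1242 and 4596 in wild type mice (libraries 21, 22, 26, 27), and 405, 505, 508 and 1171 in Ceacam1-/- mice (23, 24, 25, 28). With laser the wild type libraries ran from 774 through a median of 996 to 8367, and the Ceacam1-/- libraries from 68 through 335 to 905. Genotypes overlapped through library 28 without laser and library 15 with laser, both rich in Krt12, the keratin of corneal epithelium (61194 and 178593, with 175232 in library 22 and at most 347 in the other 21). Without the 3 libraries holding more than 50000 of Krt12, every Ceacam1-/- library lay below every wild type library of its treatment. Ceacam1 was 3.87-fold higher in wild type mice without laser (exact two-sided permutation p = 0.0571) and 4.49-fold higher with laser (exact p = 0.000175). Values above 0 remained in the Ceacam1-/- libraries, and whether the reads fell outside the deleted exons was not tested.

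The tissue also differed between libraries in ways the groups do not describe. The summed normalized counts of 9 photoreceptor markers, genes of the light-sensing cells of the retina, were 323792 and 350174 in libraries 21 and 23 without laser, and 614793, 347066 and 615984 in the Ceacam1-/- laser libraries 14, 15 and 18. In the other 19 libraries this sum ran from 6108 to 156449, with a median of 31148. Libraries 14, 15, 18, 21 and 23, the 5 with sums over 200000, are called photoreceptor-rich here. The summed markers of pigment epithelium in libraries 14, 15 and 18 were 83636, 82277 and 52915, against 262988 to 491574 in the other 4 Ceacam1-/- laser libraries. Their 12 endothelial markers summed to 8072, 16626 and 10609, against 30760 to 41660. The laser changes were therefore also fitted without the 5 photoreceptor-rich libraries, a choice made after seeing the data. In bulk RNA, fewer cells of a type and less RNA per cell cannot be told apart. Every gene of the 11 marker lists was above 0 in at least 1 library.

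Per kilobase of transcript, the group mean of Vegfa was the highest of the members in all 4 groups and that of Vegfb the next, with ranges that overlapped. Vegfa exceeded Vegfb in 2 of 4 Ceacam1-/- libraries without laser, and with laser in 7 of 9 wild type and 7 of 7 Ceacam1-/- libraries. Vegfb exceeded Nrp1, the third by group mean with laser, in 4 of 9 and 5 of 7 libraries. Without laser in wild type mice, Vegfa had 2428 ± 556 normalized counts per kb (SD, n = 4) and Vegfb 1808 ± 352, and Vegfa exceeded Vegfb in 3 of 4 libraries. Pgf followed at 836 ± 476 and Nrp1 at 763 ± 252, in either order between libraries (2 of 4 each way). The receptors Kdr, at 506 ± 52.9, and Flt1, at 449 ± 103, were close, with Kdr above Flt1 in all 4 libraries though their ranges overlapped. Nrp2 stood at 240 ± 112 and Vegfc at 177 ± 56.4, and the lowest were Vegfd (76.2 ± 29.2) and Flt4 (60.3 ± 23.4), whose order changed between libraries. With laser Vegfd stood at the bottom of the order, below Flt4 in all 9 wild type and all 7 Ceacam1-/- libraries. As a share of the 5 ligands per kb, Vegfa took 45.8% ± 6.77 and 41.9% ± 11.7 without laser (wild type and Ceacam1-/-, n = 4 each), and 40.5% ± 7.16 (n = 9) and 41.8% ± 9.43 (n = 7) with laser. Of the 3 receptors per kb, Kdr took 50.3% ± 3.83, 43.9% ± 5.22, 52.9% ± 8.23 and 55.7% ± 8.37 in the same order.

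**Figure D1:**
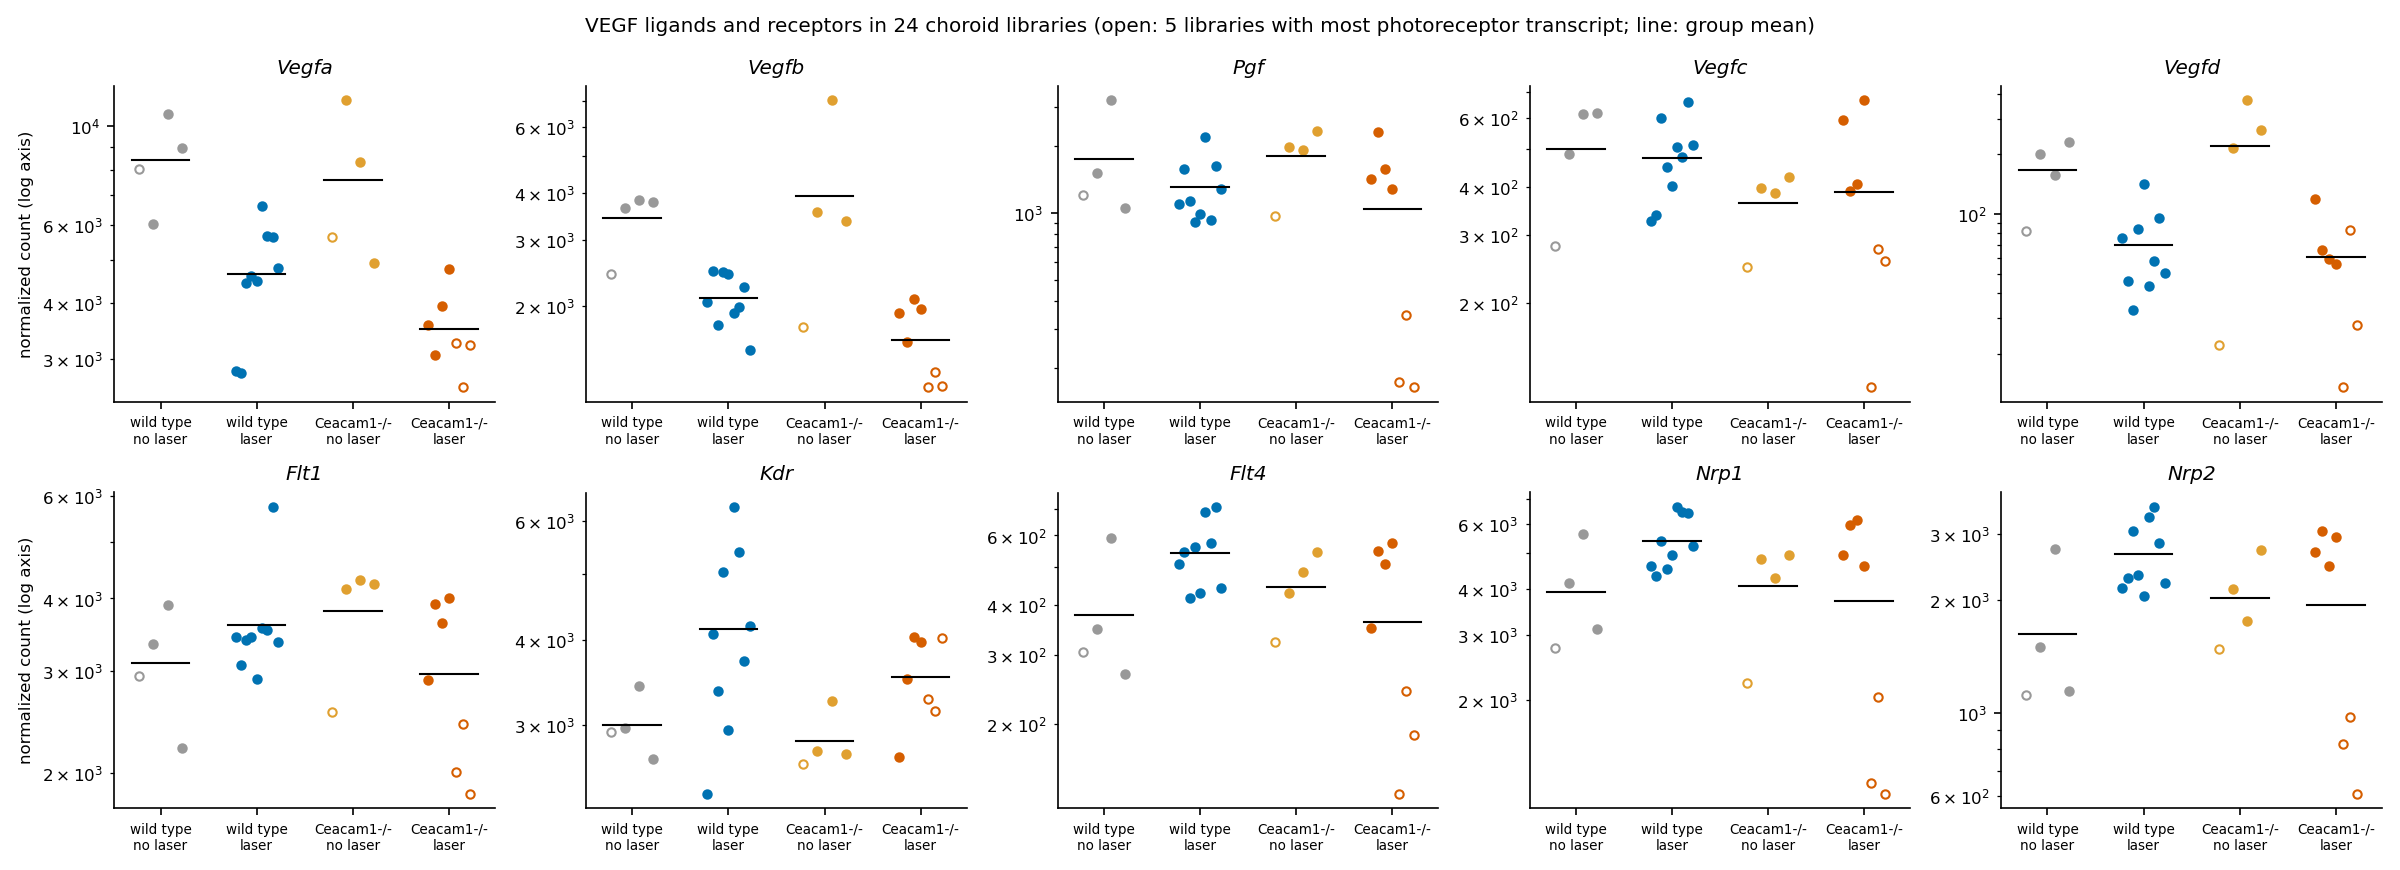
Normalized counts (log axes) of the 10 members, 1 point per library in 4 groups, with the group mean as a line and open points for the 5 libraries with most photoreceptor transcript. Vegfa and Vegfb sit lower in both laser groups. In Vegfb, Vegfc, Pgf, Flt1, Flt4, Nrp1 and Nrp2 the open points of libraries 14, 15 and 18 lie below all other laser libraries. In Vegfa, Vegfd and Kdr this does not hold.

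Vegfa (ENSMUSG00000023951, chr17:46327919-46343309 on GRCm39, minus strand) encodes the ligand of VEGFR1 and VEGFR2. Wild type libraries 21, 22, 26 and 27 without laser had 8009, 6041, 10672 and 8926 normalized counts, and the 9 with laser ran from 2796 through a median of 4605 to 6621. All but library 13 of the laser group lay below every library without laser. Ceacam1-/- libraries 23, 24, 25 and 28 without laser had 5630, 11443, 8319 and 4942, and the 7 with laser ran from 2589 through 3267 to 4789, so these groups did not overlap. The log2 fold change with laser was -0.88 (SE 0.24) in wild type mice and -1.06 (SE 0.25) in Ceacam1-/- mice, or 1.84-fold and 2.09-fold lower, with limma adjusted p of 0.0296 and 0.0181. Exact two-sided permutation tests of this gene gave p of 0.0042 and 0.00303. Without the 5 photoreceptor-rich libraries the changes were -0.89 and -1.03 (adjusted p = 0.0464 and 0.0291).

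The Vegfa call in wild type mice was lost without library 21 (adjusted p = 0.0846), 26 (0.104), 27 (0.107) or the laser library 1 (0.0525), with changes from -0.89 to -0.75. The genes most like Vegfa over the 24 libraries were Stxbp4 (Pearson's r of log2 values 0.89), Gm10644 (0.87) and Calcoco1 (0.87). For Ceacam1-/- mice it was lost without library 24 (0.112) or 25 (0.105), at -0.84 and -0.99, and when the other genotype was kept out of the fit (0.141).

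Vegfb (ENSMUSG00000024962, chr19:6958447-6965127, minus strand) encodes a ligand of VEGFR1 best known from heart and muscle. It had 2427, 3652, 3828 and 3774 normalized counts in wild type libraries 21, 22, 26 and 27, and between 1530 and 2483 with laser (median 2055). Libraries 23, 24, 25 and 28 of Ceacam1-/- mice had 1759, 3548, 7046 and 3375, and the laser group ran from 1214 through 1608 to 2082. Its photoreceptor-rich libraries 14, 15 and 18 had 1214, 1332 and 1226, below all other laser libraries. The groups overlapped in both genotypes, through the photoreceptor-rich libraries 21 and 23. Vegfb was 2.20-fold lower with laser in Ceacam1-/- mice (log2 fold change -1.14, SE 0.25, limma adjusted p = 0.0141), and 1.62-fold lower in wild type mice, where it did not pass (-0.70, SE 0.24, adjusted p = 0.0976). Without the 5 photoreceptor-rich libraries it was called in both, at -1.22 and -0.85 (adjusted p = 0.000886 and 0.00724). The call in Ceacam1-/- mice was lost without library 25, the highest (-0.80, adjusted p = 0.112), and with wild type libraries out of the fit (adjusted p = 0.19). In wild type mice Vegfb passed without library 23 (adjusted p = 0.0386) or 25 (0.0382). It also passed there with a weight per library (-0.81, adjusted p = 0.000292) and with only wild type libraries in the fit (0.011). In these 2 fits 16.4% and 3.51% of genes were called lower.

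Vegfd (ENSMUSG00000031380, chrX:163156240-163185646, plus strand), a ligand of VEGFR3, had the lowest counts of the family and the widest range, 27.4-fold between libraries. Without laser it had 82, 199, 156 and 228 normalized counts in wild type libraries 21, 22, 26 and 27, and 22, 215, 370 and 264 in Ceacam1-/- libraries 23, 24, 25 and 28. With laser it ran from 33 through 58 to 141 in wild type mice and from 14 through 60 to 119 in Ceacam1-/- mice. The photoreceptor-rich libraries 21 and 23 were the lowest of the groups without laser. The changes of -1.28 (SE 0.59) and -1.52 (SE 0.61) did not pass the test (limma adjusted p = 0.223 and 0.161). Without the 5 photoreceptor-rich libraries they were -1.58 and -1.93 and both passed (adjusted p = 0.00962 and 0.00372), where 2.63% and 6.26% of genes were called lower, and without library 23 alone Vegfd passed in Ceacam1-/- mice (-2.42, adjusted p = 0.0043). Vegfd also passed with a weight per library, in wild type (-1.70, adjusted p = 0.00114) and Ceacam1-/- mice (-1.60, adjusted p = 0.0201, where 8.3% of genes were called lower), and with only wild type libraries in the fit (-1.28, adjusted p = 0.0405).

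Skeletal muscle markers moved with Vegfb and Vegfd. The 10 muscle markers, led by the calcium pump gene Atp2a1, summed to 382628, 694998, 400894 and 683133 in wild type libraries 21, 22, 26 and 27, and to 64231, 755670, 1206440 and 554907 in Ceacam1-/- libraries 23, 24, 25 and 28. With laser the sums lay from 99395 to 396985 in wild type mice and from 15524 to 273734 in Ceacam1-/- mice. All 10 had a negative log2 fold change with laser in both genotypes, with medians of -0.94 and -2.09, and 1 passed the test, in Ceacam1-/- mice, beside 1.65% of genes called lower there. In the fit without the 5 photoreceptor-rich libraries 2 of 10 passed in wild type and 10 of 10 in Ceacam1-/- mice, beside 2.63% and 6.26% of genes. Over the 24 libraries, after group means were subtracted, Pearson's r of log2 values with the mean of the muscle markers was 0.78 for Vegfb and 0.88 for Vegfd, and 0.13 for Vegfa. Without that subtraction, the genes most like Vegfd included Tcea3 (r = 0.92) and Myom1 (0.91), of which Myom1 encodes a sarcomere protein. For Vegfb they were Gmpr (0.96), Map1lc3a (0.95) and Chchd10 (0.95). These r describe libraries that share dissection and scaling. The part of muscle in the Vegfb and Vegfd values was not tested.

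Pgf (ENSMUSG00000004791, chr12:85213409-85224564, minus strand), the gene of PlGF, did not pass. It had 1203, 1505, 3199 and 1052 normalized counts in wild type libraries 21, 22, 26 and 27, and 964, 1972, 1915 and 2327 in Ceacam1-/- libraries 23, 24, 25 and 28. With laser it ran from 910 through 1129 to 2195 in wild type mice. Its values in Ceacam1-/- mice were apart, with 1414, 2305, 1568 and 1282 in libraries 4, 5, 6 and 7, and 173, 347 and 164 in the photoreceptor-rich libraries 14, 15 and 18. The change was -0.33 (SE 0.56) in wild type and -1.33 (SE 0.58) in Ceacam1-/- mice (limma adjusted p = 0.758 and 0.196). Without the 5 photoreceptor-rich libraries the latter was -0.37 (adjusted p = 0.497). The genes most like Pgf were Smad6 (r = 0.96), Eng (0.95) and Tinagl1 (0.94), of which Eng encodes the endothelial protein endoglin.

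Vegfc (ENSMUSG00000031520, chr8:54530257-54640131, plus strand), the main ligand of VEGFR3, had group means of 501 ± 160 (SD, n = 4) and 363 ± 78.3 (n = 4) without laser and 475 ± 112 (n = 9) and 387 ± 192 (n = 7) with laser, wild type first. Its changes with laser were -0.05 in wild type (95% interval -0.72 to 0.63) and -0.06 in Ceacam1-/- mice (-0.76 to 0.64). The sign turned in Ceacam1-/- mice without the 5 photoreceptor-rich libraries (0.32). Its closest genes were Pgghg (r = 0.85), Igfbp5 (0.85) and Podn (0.84).

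**Figure D2:**
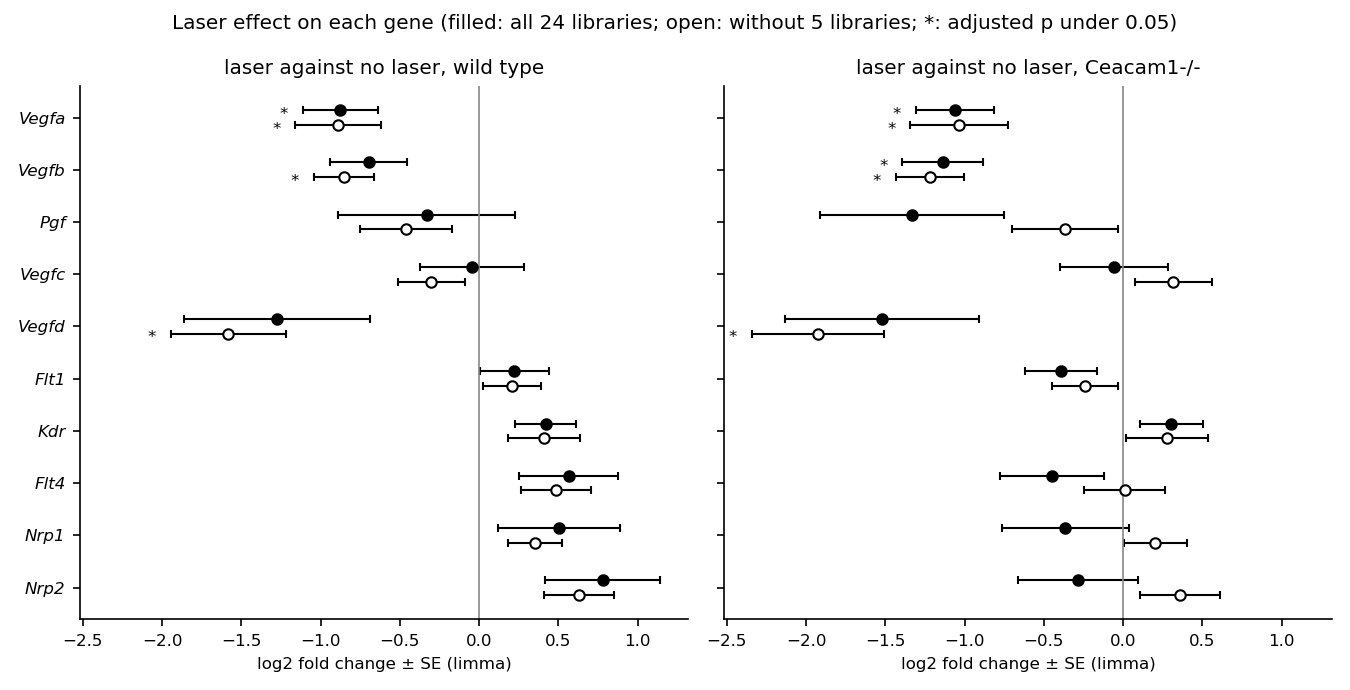
Log2 fold change ± SE from limma of each member with laser, in wild type and in Ceacam1-/- mice, from all 24 libraries (filled) and without the 5 libraries with most photoreceptor transcript (open), with a star at an adjusted p under 0.05. Vegfa lies between -1.06 and -0.88 in both panels under both choices, and Vegfd lies lowest among the open points (-1.58 and -1.93).

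Of the 10 members, 1 passed with laser in wild type mice, where 1.05% of 19950 genes were lower and 4.23% higher. In Ceacam1-/- mice 2 passed, where 1.65% were lower and 2.07% higher. All 3 calls were in the lower direction. The median log2 fold change of the members was 0.09 in wild type and -0.42 in Ceacam1-/- mice, beside -0.10 and 0.02 over all genes tested.

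Kdr (ENSMUSG00000062960, chr5:76093487-76139884, minus strand), the gene of VEGFR2, varied least between libraries of all members, by 2.65-fold. Without laser its normalized counts were 2925, 2963, 3424 and 2671 in libraries 21, 22, 26 and 27 of wild type mice, and in libraries 23, 24, 25 and 28 of Ceacam1-/- mice they were 2626, 2745, 3246 and 2718. With laser it ran from 2370 through 4086 to 6288 in wild type and from 2691 through 3501 to 4046 in Ceacam1-/- mice. Most laser libraries were above all libraries of their genotype without laser, 6 of 9 in wild type and 5 of 7 in Ceacam1-/- mice. The changes of 0.42 (SE 0.19) and 0.30 (SE 0.20) did not pass (limma adjusted p = 0.218 and 0.408), with 95% intervals of 0.02 to 0.81 and -0.11 to 0.72.

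Kdr also stood apart from the other receptors in the libraries with low sums of endothelial, mural and pigment epithelium markers. In libraries 14, 15 and 18 it had 3272, 3145 and 4029, inside the range of the other Ceacam1-/- laser libraries (2691 to 4046). Flt1 had 2006, 2428 and 1842 there against 2897 to 4005, and Nrp1 1189, 2032 and 1110 against 4608 to 6145. With group means subtracted, r with the mean of the 12 endothelial markers was -0.02 for Kdr, against 0.86 for Flt1, 0.89 for Flt4, 0.89 for Nrp1 and 0.81 for Nrp2. With the mural markers, genes of pericytes and smooth muscle, it was -0.07 for Kdr, and 0.79, 0.83, 0.94 and 0.86 for the same 4 genes. With the pigment epithelium markers it was 0.32 for Kdr and 0.67 to 0.85 for these genes, so the relation was not particular to the endothelial list. With the fibroblast markers it was 0.001 for Kdr and 0.64 to 0.90 for these genes, and with the myeloid markers -0.16 and 0.55 to 0.82. The mural markers summed to 10107, 19981 and 13912 in libraries 14, 15 and 18, against 31545 to 57503 in libraries 4 to 7. With the 9 photoreceptor markers it was 0.21 for Kdr and between -0.71 and -0.59 for those 4 genes. The log2 ratio of Kdr to the endothelial markers was 2.61, 1.5 and 2.56 in libraries 14, 15 and 18, and 0.39 to 0.88 in the other 4 of the group. In the wild type laser libraries, none of them photoreceptor-rich, it ran from 0.02 to 1.92, with libraries 13 (1.92) and 16 (1.61) above library 15. By r of log2 values over the 24 libraries without subtracting group means, the genes most like Kdr were Tle1 (r = 0.73), Ankrd50 (0.72) and Aldh3a2 (0.68), whereas Flt4 had Mmrn2 (0.96), Tie1 (0.94) and Dct (0.93) and Flt1 had Ripor1 (0.89), Notch4 (0.89) and Nos3 (0.89). Mmrn2, Tie1, Notch4 and Nos3 are endothelial genes and Dct is a pigment cell gene. The part of endothelial, mural or other cell content in these values was not tested.

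**Figure D3:**
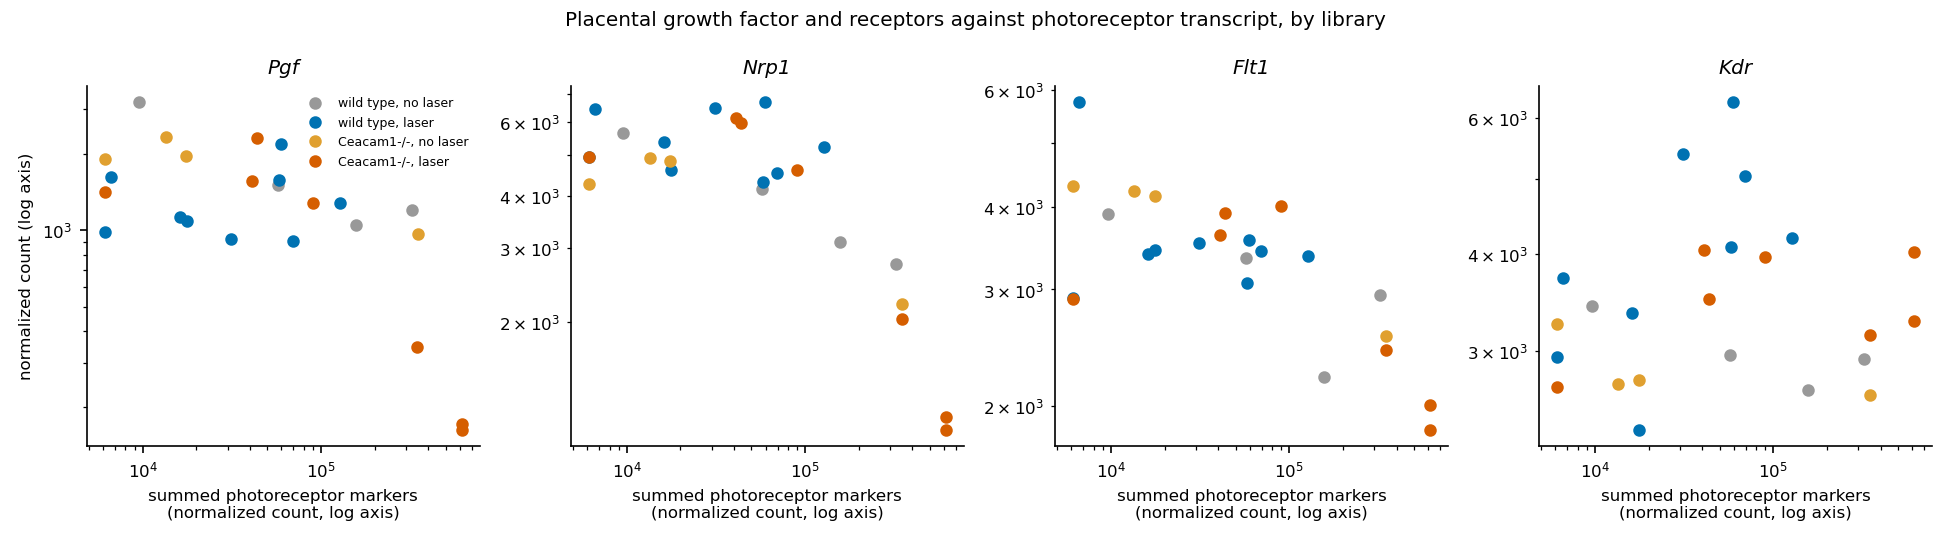
Normalized counts of Pgf, Nrp1, Flt1 and Kdr against the summed photoreceptor markers, both on log axes, 1 point per library coloured by group. Libraries 14, 15 and 18 lie toward the right, as do libraries 21 and 23, and are low in Pgf, Nrp1 and Flt1 but not in Kdr.

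Flt1 (ENSMUSG00000029648, chr5:147498414-147662826, minus strand), the gene of VEGFR1, had 2946, 3343, 3894 and 2210 normalized counts in wild type libraries 21, 22, 26 and 27, and 2555, 4150, 4299 and 4233 in Ceacam1-/- libraries 23, 24, 25 and 28. With laser it ran from 2912 through 3432 to 5753 in wild type and from 1842 through 2897 to 4005 in Ceacam1-/- mice. Groups overlapped throughout, and the changes with laser were 0.22 (SE 0.22) and -0.39 (SE 0.23), with limma adjusted p of 0.578 and 0.342. The within-library log2 ratio of Flt1 to Kdr was 0.40 ± 0.31 (SD, n = 4) without and -0.30 ± 0.47 (n = 7) with laser in Ceacam1-/- mice, a difference of -0.70 (exact permutation p = 0.0333, adjusted p = 0.4 over the 24 ratio tests). In wild type mice it was 0.02 ± 0.21 and -0.17 ± 0.51 (exact p = 0.473).

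Flt4 (ENSMUSG00000020357, chr11:49500090-49543582, plus strand), the gene of VEGFR3, had 304, 347, 592 and 268 normalized counts in wild type libraries 21, 22, 26 and 27, and ran from 418 through 544 to 709 with laser. In Ceacam1-/- mice it had 323, 430, 484 and 544 in libraries 23, 24, 25 and 28, and ran from 133 through 351 to 574 with laser. Neither change passed, at 0.56 (SE 0.31) and -0.45 (SE 0.33), with limma adjusted p of 0.319 and 0.46. Of the lymphatic endothelial markers Pdpn was the most abundant, and r of Flt4 with the list was -0.52 after group means were subtracted. Prox1 and Reln, also of this list, are known from retinal neurons too, and the sources of these genes were not separated here.

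The neuropilins, which also bind semaphorins, behaved like one another (r = 0.94 after subtracting group means). Nrp1 (ENSMUSG00000025810, chr8:129085085-129231082, plus strand) had 2760, 4162, 5640 and 3111 normalized counts in wild type libraries 21, 22, 26 and 27 and 4326 to 6679 with laser (median 5243). In Ceacam1-/- libraries 23, 24, 25 and 28 it had 2216, 4831, 4271 and 4933, and with laser 1110 to 6145 (median 4608). Nrp2 (ENSMUSG00000025969, chr1:62742444-62857854, plus strand) had 1114, 1500, 2732 and 1145 in wild type mice without laser and 2053 to 3544 with it, and 1484, 2146, 1757 and 2718 against 608 to 3064 in Ceacam1-/- mice. In wild type mice the changes were 0.50 (SE 0.38) and 0.78 (SE 0.36), with a 95% interval of 0.03 to 1.53 for Nrp2, and neither passed (limma adjusted p = 0.472 and 0.232), though Nrp2 did with only wild type libraries in the fit (0.78, adjusted p = 0.0371). Among Ceacam1-/- mice they were -0.36 and -0.29, and they turned to 0.20 and 0.36 without the 5 photoreceptor-rich libraries. Kank2 was among the 3 genes most like each (r = 0.97 and 0.96), beside Adgre5 (0.98) and Tspan18 (0.97) for Nrp1 and Phldb2 (0.96) and Fmnl3 (0.95) for Nrp2.

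**Figure D4:**
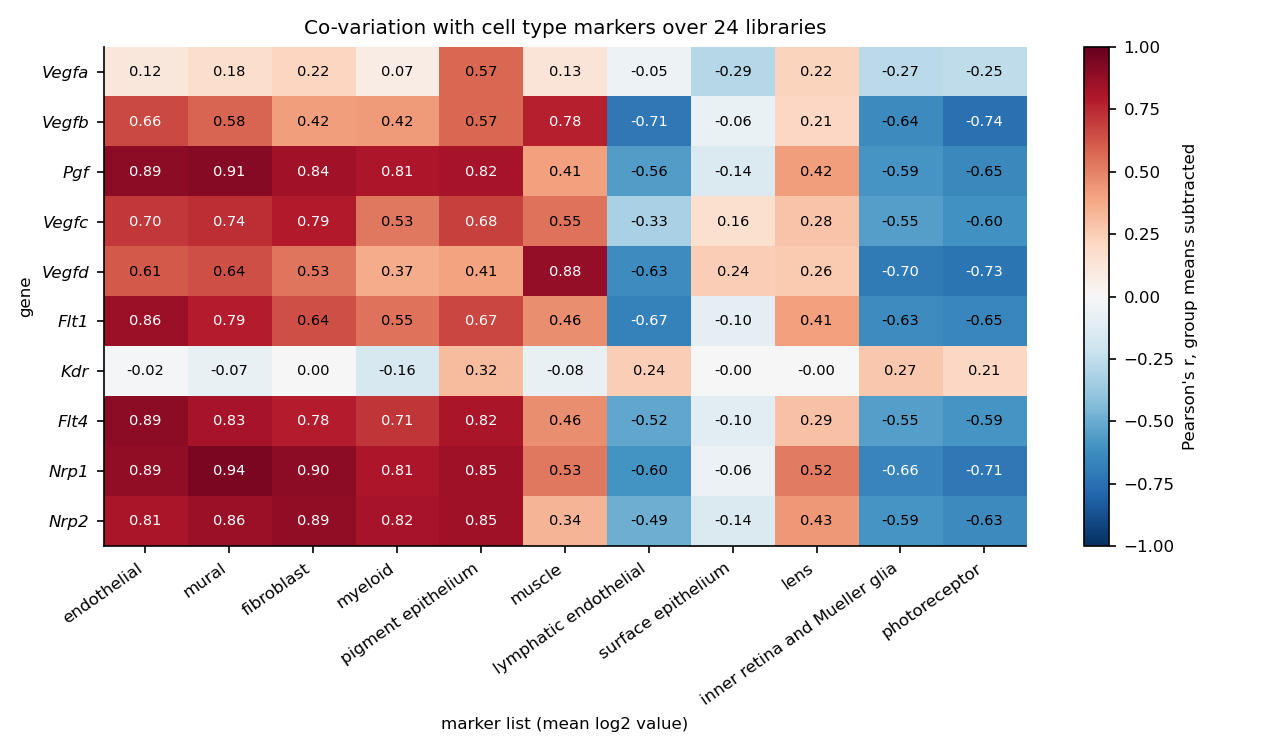
Pearson's r between log2 values of each member and the mean log2 of each marker list over 24 libraries, with group means subtracted. Pgf, Flt1, Flt4, Nrp1 and Nrp2 follow the endothelial list (0.81 to 0.89) and the mural list (0.79 to 0.94). They also follow the pigment epithelium (0.67 to 0.85), fibroblast (0.64 to 0.90) and myeloid lists (0.55 to 0.82). Vegfb and Vegfd follow the muscle list most (0.78 and 0.88). Vegfa has its highest r with the pigment epithelium list (0.57), but Vegfb matches it there (0.57), and Vegfc (0.68) and the genes named first exceed it. Kdr follows no list by more than 0.32.

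Since VEGF-A is made by the pigment epithelium, Vegfa was also set against the mean of the 12 markers listed for it within each library, a ratio in which library size cancels. The list holds the pigment cell gene Dct, and the cells that gave these transcripts were not separated. The ratio is therefore not Vegfa per pigment epithelium cell. In wild type mice without laser the log2 ratio was -0.43, -0.41, -1.11 and -0.45 in libraries 21, 22, 26 and 27, and with laser it ran from -2.04 through -1.67 to -1.11. The ranges touched at -1.11 only, and the difference of -1.07 had an exact permutation p of 0.0028, or 0.0671 adjusted over the 24 ratio tests. In Ceacam1-/- mice libraries 23, 24, 25 and 28 had -0.73, -0.47, -1.30 and -1.03. With laser, libraries 4, 5, 6 and 7 had -1.43, -1.97, -1.77 and -1.85, below all of these, while the photoreceptor-rich libraries 14, 15 and 18 had 0.28, -0.49 and 0.68. The difference was -0.05 with all libraries (exact p = 0.93) and -0.82 without the photoreceptor-rich ones (exact p = 0.0286, the smallest that 4 libraries against 3 allow). Of the 24 ratio tests, 0 passed after adjustment.

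**Figure D5:**
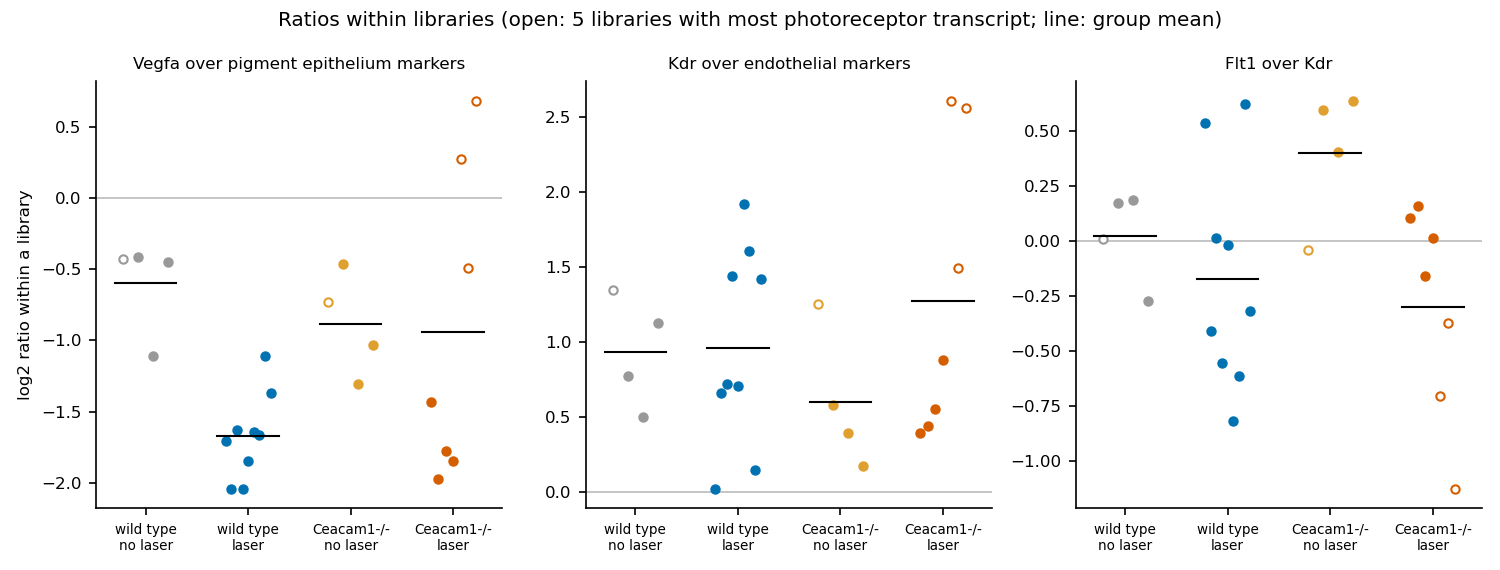
Log2 ratios within a library of Vegfa to the pigment epithelium markers, Kdr to the endothelial markers and Flt1 to Kdr, 1 point per library with the group mean as a line and open points for the 5 libraries with most photoreceptor transcript. Vegfa over pigment epithelium markers is lower in wild type laser libraries and in the 4 filled Ceacam1-/- laser points, and the open points of the last group stand above them.

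Genotype changed no member past the threshold. Without laser 0 of 10 members passed, beside 0% of 20057 genes by limma (307 genes had an unadjusted p under 0.05), and the log2 fold changes lay between -0.42 (Vegfc) and 0.38 (Nrp2). For Kdr the 95% interval was -0.45 to 0.29 and for Vegfa -0.90 to 0.50. With laser 0 of 10 passed, beside 0.0202% of 19757 genes, and all 10 changes were negative, from -0.88 for Pgf and -0.83 for Nrp1 to -0.19 for Kdr. Without the 5 photoreceptor-rich libraries, Pgf (0.36), Nrp1 (0.01), Nrp2 (0.10), Flt1 (0.02), Vegfc (0.11) and Vegfd (0.17) were positive. The difference of the laser effect between genotypes passed for 0 of 10 members, beside 0% of 19950 genes by limma (1241 with an unadjusted p under 0.05), with the lowest p for Flt4 (-1.01, SE 0.45, adjusted p = 0.64). Both laser comparisons and the genotype comparisons share libraries, so their values are given side by side and not as independent results.

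Further lists held genes around the pathway. In the list of genes that VEGF induces in endothelium, 1 of 10 passed, Aplnr, the apelin receptor gene, in wild type mice (log2 fold change 1.67, SE 0.43, limma adjusted p = 0.0243), beside 4.23% of all genes called higher, so a single call is no result about the list. Aplnr had 208 to 648 normalized counts without and 861 to 1872 with laser, so the groups did not overlap. The median of the list was 0.56 in wild type and 0.22 in Ceacam1-/- mice, beside -0.10 and 0.02 over all genes. With the 5 photoreceptor-rich libraries left out, 3 of the 10 were higher in each genotype, beside 5.76% of genes in wild type and 8.66% in Ceacam1-/- mice. Of 8 genes of oxygen control, Egln1, a prolyl hydroxylase that marks HIF for destruction, passed in wild type mice (-0.59, SE 0.15, adjusted p = 0.0191), 1 call beside 1.05% of genes lower, at 3461 to 4741 without and 2021 to 3216 with laser. Its change in Ceacam1-/- mice was -0.49 (adjusted p = 0.0764). Without the 5 photoreceptor-rich libraries 2 of the 8 were lower in wild type and 1 in Ceacam1-/- mice, beside 2.63% and 6.26% of genes. Hif1a itself changed by 0.03 in wild type mice and 0.91 in Ceacam1-/- mice (adjusted p = 0.977 and 0.264). Of 13 neuropilin and plexin partners and 6 genes that process VEGF-C and VEGF-D, 0 passed with laser in either genotype (medians 0.14 and -0.11, and 0.39 and 0.20). Without the 5 photoreceptor-rich libraries 1 of the 6 processing genes was higher in Ceacam1-/- mice, beside 8.66% of genes. In that fit 0 of the 13 partners passed in either genotype.

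Beside these values, 11 of 12 myeloid markers rose with laser in wild type and 7 of 12 in Ceacam1-/- mice, with median log2 fold changes of 2.24 and 1.55, beside 4.23% and 2.07% of genes called higher. Their sums in the Ceacam1-/- laser libraries 14, 15 and 18 were 32097, 27389 and 18568, against 71270 to 102855 in libraries 4 to 7. When the 5 photoreceptor-rich libraries were left out, 11 of 12 rose in each genotype (medians 1.93 and 2.05), beside 5.76% and 8.66% of genes. Of the 12 endothelial markers 0 passed in either genotype (medians 0.39 and -0.39), and of the 12 pigment epithelium markers 0 passed (0.12 and -0.84). Of the 6 fibroblast markers 1 rose in each genotype, and of the lists of photoreceptor, inner retina, mural, lens, surface epithelium and lymphatic markers 0 genes passed. Without the 5 libraries 3 (wild type) and 6 (Ceacam1-/-) of the 6 fibroblast markers were higher, and 1 mural and 1 surface epithelium marker were lower in Ceacam1-/- mice. The 9 photoreceptor markers had medians of -1.36 and 2.26, with summed means of 136782 (wild type) and 96847 (Ceacam1-/-) without laser, and 43498 and 251296 with it. The part of these cell types in the member values was not tested.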

How the data were processed

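Choroid RNA of 24 mouse libraries was analysed. The authors made SMART-Seq libraries (whose kit is not stated to mark strand) and, per the submitters' processing notes and the methods, checked reads with FastQC 0.11.5, quantified them with salmon 1.10.3 against GRCm39 and normalized them with DESeq2 1.44.0. The deposited signal is a normalized count per gene that is no whole number, so depth in reads was not used and limma 3.58.1 (R 4.3.3) was applied instead of a count model. Log2(value + 1) was fitted with a variance trend over genes with a mean of at least 10, with Benjamini-Hochberg adjustment over all genes and a threshold of 0.05, so fold changes of low genes are understated. Laser effects and their interaction came from all 24 libraries, genotype effects from 8 without and 16 with laser. By its methods, the study removed 1 library as an outlier and kept 4 of each genotype, as many as are held here without laser. The library is not named there, so whether it is among the 24, all of which were used here, is not known. The study's sex covariate was not used, as the labels do not give it.

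Alternatives changed the pseudocount, filter, scaling, variance model, library weights, a covariate from Y-linked genes and the libraries in the fit, and left out each library. Levels per kb used the canonical GENCODE transcript. Ratios were compared by exact two-sided permutation. The methods were tested on simulated data with independent noise for each gene and library. These lacked the shared shifts between libraries seen here, so the test does not measure false calls in the real data. Named genes were the 10 members, Ceacam1, up to 3 called genes per direction and pathway list, the most abundant marker of a list, and the 3 most alike genes by Pearson's r among 15545 with a mean of at least 50. Genes outside this rule (Krt12, Hif1a, Prox1, Reln) were named after their values were seen. The members and all lists were chosen with earlier results of these data known. Some genes of the lists, including 1 photoreceptor marker left out of its list, are not reported here. Promoter sequences were read from RefSeq. Python 3.11.15, pandas 2.3.3 and numpy 2.4.6 served for tables.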

Additional observations from a re-analysis of the deposited data

Results flagged for a closer look

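In 3 of 40 sets of a member and a group, 1 library stood far from the others; chance gives about 1 in 20 such sets. Vegfb had 2427 normalized counts in library 21 against 3652 to 3828 in the other wild type libraries without laser. Flt1 had 2555 in library 23 against 4150 to 4299 in the other Ceacam1-/- libraries without laser. Both libraries were high in photoreceptor markers (sums of 323792 and 350174). Flt1 had 5753 in the wild type laser library 17 against 2912 to 3562 in the other 8, and that library also had the highest sum of endothelial markers of its group (50933, with 24195 to 42060 in the others).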

How the results depend on the processing

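Vegfa kept its direction with laser in all 37 alternatives in each genotype and stayed called in 32 (wild type) and 34 (Ceacam1-/-), and Vegfb in Ceacam1-/- mice in 35 of 37. Weights per library gave 6505 (wild type) and 3551 (Ceacam1-/-) genes called with laser in place of 1053 and 742, with 8 members in wild type mice (Vegfa, Vegfb and Vegfd lower, the 3 receptors and 2 co-receptors higher) and 3 in Ceacam1-/- mice (Vegfa, Vegfb and Vegfd lower), and 297 and 1 genes between genotypes with and without laser. With only the compared genotype in the fit the counts were 2274 genes and 4 members (wild type; Nrp2 the only one higher, 0.78, adjusted p = 0.0371) and 38 genes and 0 members (Ceacam1-/-), and with all 24 libraries in the genotype comparison with laser 9 genes. With no filter Ceacam1-/- mice had 437 genes and wild type mice 0 members, a mean of at least 50 gave 2 genes between genotypes with laser, and limma without trend 1 without laser. Omitting the 5 photoreceptor-rich libraries (chosen after seeing the data) gave 1645 genes and 3 members (wild type), 2923 genes (Ceacam1-/-) and 2 between genotypes with laser. Omitting the 3 Krt12-rich ones, also chosen afterwards, gave 1 interaction. With each library left out, genes called ran from 479 to 1257 (wild type; lowest without library 21), 148 to 2488 (Ceacam1-/-; without 25 and 23), 4 to 61 (genotype with laser; highest without library 19) and 0 to 1 (genotype without laser), and members called from 0 to 2 and 0 to 3 with laser.

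Signs turned for values that passed no test in the report; the cause was not tested. Weights per library turned the laser change in Ceacam1-/- mice of Vegfc (0.29), Flt4 (0.074), Nrp1 (0.076) and Nrp2 (0.26), the interaction of Vegfc (0.49) and Vegfd (0.10), the genotype change without laser of Vegfa (0.079) and Vegfd (0.019), and that with laser of Vegfd (0.12), Pgf (0.21) and Flt1 (0.035). Without the photoreceptor-rich libraries the laser change in Ceacam1-/- mice turned for Vegfc (0.32), Flt4 (0.0087), Nrp1 (0.20) and Nrp2 (0.36), the interaction for Vegfc (0.62) and Pgf (0.094), and the genotype change for Vegfd without laser (0.52) and, with laser, for Vegfc (0.11), Vegfd (0.17), Pgf (0.36), Flt1 (0.017), Nrp1 (0.010) and Nrp2 (0.10). Ratios turned there too, between genotypes with laser for Flt1 over Kdr (0.20), Pgf over Vegfa (0.60), Vegfa over pigment epithelium markers (-0.085), Kdr over endothelial markers (-0.39) and Flt1 over them (-0.19), and with laser in Ceacam1-/- mice for Pgf over Vegfa (0.67). Without the Krt12-rich libraries Vegfc turned in Ceacam1-/- mice (0.075) and in the interaction (0.11), and Pgf (-0.051) and Nrp1 (-0.028) between genotypes without laser. Quantile normalization turned Vegfb between genotypes without laser (-0.0016).

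Leaving out 1 library moved across 0 the laser change of Vegfc (wild type -0.30 to 0.079, Ceacam1-/- -0.23 to 0.19) and Pgf (wild type -0.53 to 0.0095), the interaction of Vegfa (-0.36 to 0.040), Vegfc (-0.19 to 0.24) and Vegfd (-1.14 to 0.20), and the genotype change without laser of Vegfb (-0.28 to 0.38), Vegfd (-0.51 to 0.82), Pgf (-0.074 to 0.46) and Nrp1 (-0.11 to 0.31). Among ratios it did so for Flt1 over Kdr between genotypes with laser (-0.21 to 0.013), and for Pgf over Vegfa (-0.010 to 0.54) and Flt1 over endothelial markers (-0.054 to 0.17) between genotypes without laser. With laser it did so for Pgf over Vegfa (-0.59 to 0.055), Vegfa over pigment epithelium markers (-0.32 to 0.12), Flt1 (-0.18 to 0.076) and Nrp1 (-0.081 to 0.12) over endothelial markers in Ceacam1-/- mice, and Kdr over endothelial markers in wild type mice (-0.12 to 0.16).

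No paired analysis was possible because the labels give no library number shared between groups. Read depth was not used, so precision rests on 4 to 9 libraries per group. Quantile and upper-quartile scaling changed no call of Vegfa or of Vegfb in Ceacam1-/- mice.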
